A study of Mus musculus with 36 samples.

Results

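Mature miRNAs were measured in mouse pre-B cells while the transcription factor Ikaros was held in the nucleus for up to 24 h, and the comparison described here asks which of them peaked or dipped in mid-course. The mean of the samples of 6 h and 12 h was set against the mean of the samples of 2 h and 24 h, here called the ends, and the difference in log2 units is the mid-course contrast. It rests on 12 of the 36 samples of the series, 3 at each time. They came from the B3 line, a pre-B lymphocyte line that had received an MSCV retroviral vector for haemagglutinin-tagged Ikaros joined to the estrogen receptor hormone-binding domain (ERt2), with IRES and GFP behind it. The fusion protein enters the nucleus when 4-hydroxy-tamoxifen (4-OHT) is given, here at 0.5 uM and for 2, 6, 12 or 24 h before the harvest. A further 12 samples of the control line, which carried a vector with ERt2 and without Ikaros and received the same dose for the same times, gave the same contrast as a check. Culture batches 1, 2 and 3 each supplied 1 sample to every group, under the replicate numbers 1, 2 and 4, so that no time of the contrast stands in a culture batch of its own. Each arm is 1 transduced line in culture, and differences between the lines other than Ikaros cannot be told apart from it. In such bulk samples, fewer cells of a kind and less RNA per cell cannot be told apart either.

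The table held 469 miRNAs on a log2 scale, the lowest value being 0.088 and the highest 19.295, and the 12 Ikaros samples had medians between 3.70 and 4.15. It gives no counts, so the depth behind each value is unknown and precision was judged from the spread within groups of 3 samples. The 95% interval of the contrast reached 0.42 log2 units to either side at the median miRNA. miR-181a-5p, known from lymphocyte precursors, had a mean level of 18.15 and miR-142-5p, a miRNA of blood cells, of 14.62. The 11 measured markers of other cell types held between 0.613% and 0.801% of the linear sum of the table in the Ikaros samples of 2 h to 24 h. The share was 0.695% to 0.772% (2 h), 0.632% to 0.783% (6 h), 0.613% to 0.648% (12 h), 0.758% to 0.801% (18 h) and 0.761% to 0.795% (24 h). The 12 h samples thus lay below all of 2 h, 18 h and 24 h, while the range of 6 h enclosed that of 2 h. The part of the share in the results was not tested. Most of the share was miR-9-5p, best known from the nervous system, at a mean level of 13.30, and none of the 11 passed the contrast. Against 24 h alone, mid-course was higher for 1 of the 11 and lower for 0 by limma. The myeloid marker miR-223-3p was planned as a marker but is not among the 11. It did not pass the contrast, and its mid-course lay 1.42 below 24 h (limma, adjusted p = 0.00816). The main axis of the spread within groups held 36.5% of that variance and was led by miR-19a-3p and miR-19b-3p. Its 3 highest scores belonged to Ikaros replicate 4 of 2 h, replicate 1 of 6 h and replicate 4 of 12 h, with miR-19b-3p at 14.32, 15.25 and 16.36, and its lowest to Ikaros replicate 1 of 12 h, with 9.52. The Ikaros samples of the contrast were all sequenced on the first of the 2 occasions of the study, and replicate 4 of 6 h and replicate 2 of 12 h on both. The control samples of 24 h were sequenced on the first occasion, 2 of them on both, and those of 2 h to 12 h on the second, so that the control contrast also rests on the authors' correction for the occasion.

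A miRNA is a short RNA cut from a hairpin, and its seed, bases 2 to 8, pairs with target mRNAs and so lowers their stability or translation. Both arms of a hairpin can be kept, and they carry different seeds. Finished miRNAs often last for many hours, so that their levels can trail behind changes in their production. In pre-B cells miRNAs take part in the exit from the cell cycle and in the rearrangement of the light chains, steps which Ikaros promotes.

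The sequences below are those of the miRNAs that passed the test of the contrast, since these are the candidates for a mid-course change. They come from the RefSeq miRNAs of GRCm38.p6, which gave a sequence for 391 of the 469 measured miRNAs and for 11 of the 12 that passed, the other being miR-467c-5p. The seed is in capitals, and the 11 have 11 different seeds. The miRNAs with a contrast above 0 were these.
miR-210-5p: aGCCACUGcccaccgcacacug
miR-92a-1-5p: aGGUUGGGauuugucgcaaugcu
Those with a contrast below 0 were the following.
miR-30e-5p: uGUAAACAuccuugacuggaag
miR-350-3p: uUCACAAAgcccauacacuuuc
miR-149-5p: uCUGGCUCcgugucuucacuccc
miR-6240: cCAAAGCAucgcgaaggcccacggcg
miR-28a-3p: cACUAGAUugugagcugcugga
miR-1843a-3p: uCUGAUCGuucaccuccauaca
miR-1198-5p: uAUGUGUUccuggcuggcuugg
miR-26a-5p: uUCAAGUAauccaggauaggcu
miR-21a-5p: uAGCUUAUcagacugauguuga
miR-30c-5p, which shares the seed of miR-30e-5p and did not pass, is shown for comparison.
miR-30c-5p: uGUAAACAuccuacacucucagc

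By limma with Benjamini-Hochberg adjustment over the 469 miRNAs, 12 passed the mid-course contrast in the Ikaros line (2.56%). In 3 of them (0.64%) mid-course lay above the ends, namely miR-210-5p, miR-92a-1-5p and miR-467c-5p, with differences of 2.16, 0.62 and 0.45. In 9 (1.92%) it lay below, from -1.10 for miR-30e-5p to -0.38 for miR-21a-5p. At an unadjusted p under 0.05 there were 55 (11.7%). In each of the 3 culture batches taken alone, all 12 had the sign of the pooled value. The choice of the 12 favours this, since the pooled value is the mean over these batches. The count was 0 without the samples of replicate 1, 0 without those of replicate 2 and 5 without those of replicate 4, and it was between 9 and 17 when any single Ikaros sample was left out. A model of the compared groups alone counted 3 miRNAs, which were miR-210-5p, miR-30e-5p and miR-149-5p.

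**Figure D1:**
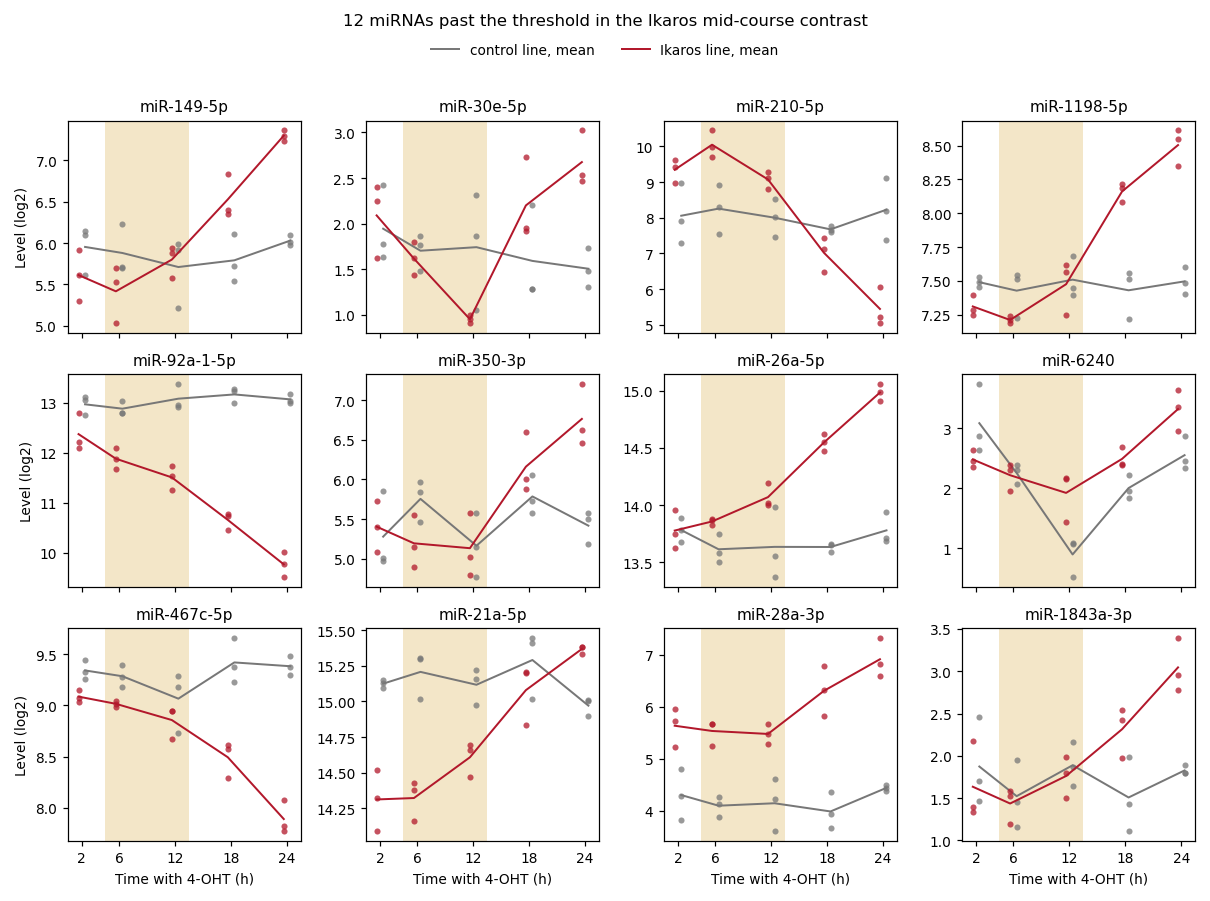
Levels (log2, vertical axes with separate ranges) of the 12 miRNAs that passed the Ikaros mid-course contrast, against hours with 4-OHT from 2 h to 24 h. Points are single samples, lines join the means of 3 samples, the Ikaros line is red and the control line grey, and the shaded band holds the mid-course times of 6 h and 12 h. In most panels the red line moves more after 12 h than before, and miR-30e-5p falls to a mean of 0.95 at 12 h before it rises to 2.68 at 24 h.

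The contrast averages the ends, so it was split into the step from 2 h and the step to 24 h. Against 24 h, all 12 passed in the direction of the contrast, with differences between 0.90 and 4.11 log2 units in size and a median size of 1.40. Against 2 h, the median size was 0.17, and the only miRNA of the 12 that passed, miR-92a-1-5p, lay below its 2 h level, on the side opposite to its contrast. The 6 mid-course samples were clear of the 3 samples of 24 h for all 12, which the contrast favours since it contains that step, and for 80 of the 469 (17.1%). They were clear of the 3 samples of 2 h for none of the 12 and for 18 of the 469 (3.84%). By value alone, the mid-course mean lay beyond both ends for 7 of the 12. It was below both for miR-30e-5p, miR-350-3p, miR-149-5p, miR-6240, miR-28a-3p and miR-1843a-3p and above both for miR-210-5p. Over the table it lay above both for 81 of the 469 (17.3%) and below both for 94 (20.04%). For some of the 7 the side towards 2 h was not stable. Once every sample was centred on its own median, mid-course lay above 2 h for miR-149-5p (0.15), miR-28a-3p (0.020) and miR-1843a-3p (0.11). For miR-210-5p the step from 2 h was -0.0022 without replicate 4. By limma, 0 of the 469 miRNAs passed after adjustment in the contrast and also on either side of it in the same direction. On unadjusted p-values 3 did (0.64%), namely miR-30e-5p, miR-222-3p and miR-6988-3p. With sample weights in limma, whose estimation did not fully converge, 4 met it after adjustment.

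Over the whole table the later step gave more calls. It covers more hours, from a mid-course mean of 9 h to 24 h, against 2 h to 9 h. A steady change would also make it the larger step. Mid-course differed from 24 h for 100 miRNAs (21.3%; 31.1% at an unadjusted p under 0.05), of which 53 were higher (11.3%) and 47 lower (10%). It differed from 2 h for 4 (0.853%; 38 or 8.1% unadjusted), with miR-26a-2-3p higher (0.213%) and miR-92a-1-5p, miR-27a-5p and miR-128-2-5p lower (0.64%). None of these was left without replicate 4 of 2 h, and the count was 2 without replicate 2 of 6 h. Once every sample was centred on its own median, 2 were higher and 1 lower, and this raised the step from 2 h by 0.15 at the median miRNA, while quantile normalization gave 2 higher and 3 lower.

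By value, the mid-course mean lay above both ends for 81 miRNAs (17.3%) and below both for 94 (20.04%) in the Ikaros line. In the control line it lay above both for 113 (24.09%) and below both for 174 (37.1%). A distance of at least 0.5 log2 units from both ends was reached by 1 miRNA above and 3 below in the Ikaros line, and by 4 above and 8 below in the control line. A distance of 1 log2 unit was reached by none in either. No miRNA had its 6 mid-course samples all above or all below the 6 others, in either line. The counts of the control line also rest on the authors' correction for the sequencing occasion.

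**Figure D2:**
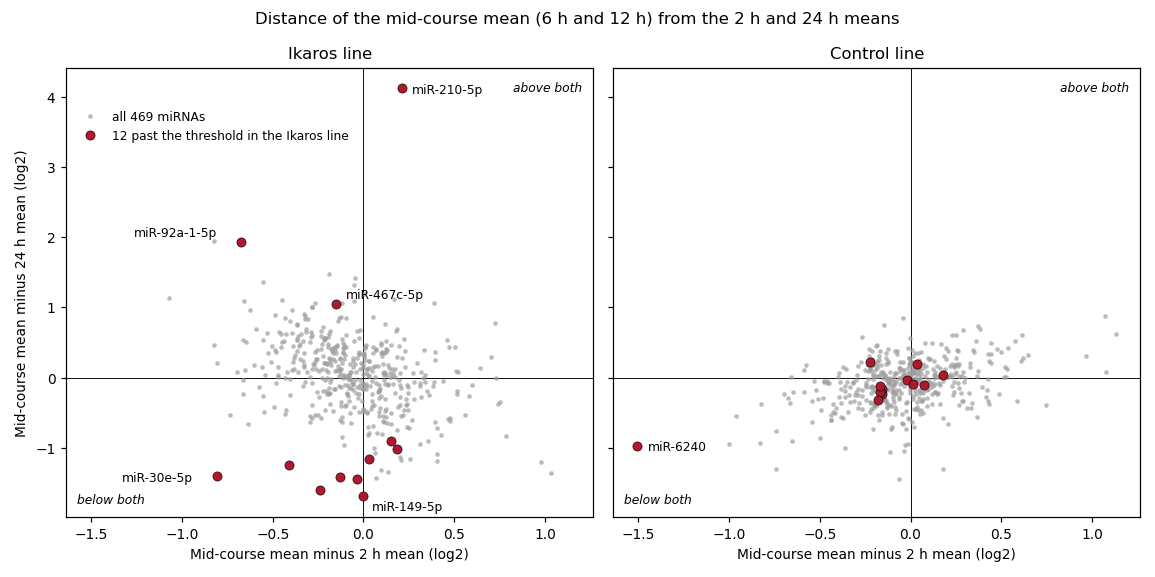
Mid-course mean minus 2 h mean (horizontal) against mid-course mean minus 24 h mean (vertical), in log2 units, for the 469 miRNAs in the Ikaros line (left) and the control line (right). Each point is a miRNA, and those in red passed the Ikaros contrast. The red points of the Ikaros line spread from -1.69 to 4.11 along the vertical axis and only from -0.81 to 0.21 along the horizontal one.

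miR-30e-5p had the lowest contrast and, of the 469, the largest distance from the nearer end. This member of the miR-30 family, reported as repressed by Myc, is encoded in an intron of Nfyc, its hairpin lying at chr4:120772606-120772697 (GRCm38.p6, minus strand). Its levels in replicates 1, 2 and 4, the order used throughout, were 1.62, 2.25 and 2.399 (2 h), 1.79, 1.62 and 1.44 (6 h), 0.996, 0.90 and 0.95 (12 h) and 3.02, 2.53 and 2.47 (24 h). The 12 h samples lay below all other Ikaros samples of the contrast and close together, whereas the 6 h samples overlapped those of 2 h. The contrast was -1.10 (SE 0.21, adjusted p = 0.00106), which is a level of 0.466 times that of the ends, and within culture batches 1, 2 and 3 it was -0.93, -1.13 and -1.24. Mid-course lay 0.81 below 2 h (95% interval of the difference -1.32 to -0.29, adjusted p = 0.17) and 1.39 below 24 h (adjusted p = 0.000163). At 18 h, a time outside the contrast, the mean was 2.199, which is 0.92 above mid-course (adjusted p = 0.0282). In the control line the contrast was -0.0025 (95% interval -0.42 to 0.42). All these levels are near the low end of the table. The other arm of the hairpin, miR-30e-3p, had a mean level of 11.16 and a contrast of 0.08 (SE 0.17, adjusted p = 0.95). Of the family members at higher levels, miR-30c-5p had a contrast of -0.38 (SE 0.16, adjusted p = 0.28) and miR-30b-5p one of 0.04 (SE 0.15, adjusted p = 0.97).

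miR-210-5p had the largest contrast of all. The hairpin lies between annotated genes of its strand at chr7:141221384-141221493 (GRCm38.p6, minus strand), and its 3p arm is the best known miRNA of the response to low oxygen. Levels of the 5p arm were 9.43, 9.63 and 8.98 (2 h), 9.71, 9.97 and 10.45 (6 h), 9.12, 9.29 and 8.804 (12 h) and 5.04, 5.22 and 6.07 (24 h). The 6 h samples were thus above all of 2 h and of 12 h, and all samples of 24 h lay far below every earlier one. The contrast was 2.16 (SE 0.40, 95% interval 1.35 to 2.98, adjusted p = 0.00106), with 2.18, 2.21 and 2.103 in culture batches 1, 2 and 3. It came almost wholly from the late side. Mid-course exceeded 24 h by 4.11, a 17.3-fold difference, and 2 h by 0.21 (95% interval -0.78 to 1.21, adjusted p = 0.95). For 6 h alone against the ends the difference was 2.65 (adjusted p = 0.00106), and 12 h minus 6 h was -0.97 (adjusted p = 0.58). The 18 h mean of 7.02 was 61.8% of the way from the mid-course mean to that of 24 h. In the control line, with means between 8.002 and 8.26 at the times of the contrast, the contrast was -0.01 (95% interval -0.83 to 0.80).
The 3p arm of the hairpin, which carries the hypoxia seed, is shown with the same marking.
miR-210-3p: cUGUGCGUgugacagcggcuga
Its levels were 11.21, 11.297 and 10.51 (2 h), 10.88, 11.29 and 10.94 (6 h), 10.897, 10.52 and 10.39 (12 h) and 8.704, 9.28 and 10.05 (24 h). The mid-course mean lay 0.19 below that of 2 h and the contrast of 0.64 (SE 0.24, adjusted p = 0.21) did not pass, although mid-course lay 1.48 above 24 h (adjusted p = 0.000412).

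Most of the other miRNAs with a negative contrast stayed near their 2 h level until 12 h and were higher at 24 h. miR-149-5p, from an intron of Gpc1 on chromosome 1, had levels of 5.92, 5.62 and 5.301 (2 h), 5.03, 5.69 and 5.53 (6 h), 5.95, 5.88 and 5.58 (12 h) and 7.36, 7.29 and 7.24 (24 h). The samples of 2 h, 6 h and 12 h were intermixed and those of 24 h stood clear of them. Its contrast was -0.85 (SE 0.16, adjusted p = 0.00106). Its mid-course mean differed from 2 h by -0.0045 (95% interval -0.40 to 0.39) and was 0.31 times the 24 h level. miR-350-3p, from an intron of Cep170, had means of 5.405, 5.195, 5.13 and 6.76 (SD 0.32, 0.33, 0.40 and 0.39) at 2, 6, 12 and 24 h and a contrast of -0.92 (SE 0.20, adjusted p = 0.00572). miR-28a-3p, from an intron of Lpp, had means of 5.64, 5.54, 5.48 and 6.92 at these times and a contrast of -0.77 (adjusted p = 0.0249). miR-1843a-3p had means of 1.64, 1.44, 1.76 and 3.04 and a contrast of -0.74 (adjusted p = 0.0275). Its hairpin lies in an intron of Dcaf5 and also overlaps the annotated small RNA gene Scarna3b, so that its reads could stem from either.

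miR-26a-5p, miR-21a-5p and miR-1198-5p had mid-course means slightly above 2 h, by 0.19, 0.15 and 0.03. miR-26a-5p restrains growth, is reported as repressed by Myc, and can come from hairpins in introns of Ctdsp2 and of Ctdspl, which give the same mature sequence. Its levels were 13.63, 13.75 and 13.96 (2 h), 13.87, 13.83 and 13.88 (6 h), 14.002, 14.19 and 14.02 (12 h) and 14.99, 14.91 and 15.06 (24 h). The means rose by little until 12 h and the samples of 24 h stood apart, with a contrast of -0.42 (SE 0.09, adjusted p = 0.00632). miR-21a-5p, an abundant miRNA of many activated cells encoded in an exon of Vmp1, had means of 14.31, 14.32, 14.61 and 15.37 and a contrast of -0.38 (adjusted p = 0.0249). miR-1198-5p, from an intron of Gripap1, had means of 7.31, 7.21, 7.48 and 8.504 and a contrast of -0.56 (SE 0.10, adjusted p = 0.00106). Scaling also bore on these calls. That of miR-26a-5p was lost once samples were centred on their medians (adjusted p = 0.17), after quantile normalization (adjusted p = 0.44) and in the model of the compared groups alone (adjusted p = 0.099). The contrast of miR-21a-5p was -0.14 after quantile normalization (adjusted p = 0.82) and -0.32 after centring (adjusted p = 0.24). Of the 12, 9 passed under each of these scalings, the others lost being miR-28a-3p with centring and miR-467c-5p with quantiles. The calls with the largest adjusted p-values also depended on single samples. That of miR-21a-5p was lost without replicate 2 or 4 of 2 h, replicate 2 of 6 h, replicate 2 of 12 h or replicate 1 of 24 h, with adjusted p-values up to 0.0821. That of miR-28a-3p was lost without replicate 2 or 4 of 2 h, replicate 2 of 6 h, replicate 4 of 12 h or replicate 1 of 24 h, up to 0.103. That of miR-1843a-3p was lost without replicate 1 of 2 h, of 6 h or of 24 h or replicate 4 of 12 h, up to 0.147.

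Of the miRNAs with a positive contrast, miR-92a-1-5p and miR-467c-5p had means that fell at every step. miR-92a-1-5p is the partner arm made from the last hairpin of the miR-17-92 cluster, which Myc activates and which early B cells need, and it lies in an exon of Mir17hg on chromosome 14. Its levels were 12.09, 12.22 and 12.7997 (2 h), 12.102, 11.67 and 11.86 (6 h), 11.24, 11.54 and 11.73 (12 h) and 9.77, 10.02 and 9.51 (24 h). Mid-course lay 0.68 below 2 h (95% interval of the difference -0.99 to -0.37, adjusted p = 0.0164) and 1.92 above 24 h. The other arm, miR-92a-3p, had a contrast of 0.02 (SE 0.19, adjusted p = 0.98). miR-467c-5p, of the large families in an intron of Sfmbt2, had means of 9.09, 9.02, 8.86 and 7.89 and a contrast of 0.45 (SE 0.11, adjusted p = 0.0105). Members of these families are close in sequence, so reads may have been shared among them.

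A steady course enters the contrast because the ends average 13 h and the mid-course 9 h. Of a change that ran in a straight line from 2 h to 24 h, 18.18% appears in the contrast. When the ends were weighted so that a straight line in hours gives 0, a choice made after seeing the data, the contrast of miR-92a-1-5p was 0.15 (adjusted p = 0.99) and that of miR-21a-5p -0.18 (adjusted p = 0.92). miR-30e-5p alone passed, at -0.99 (adjusted p = 0.0279). That of miR-210-5p was 1.46 (adjusted p = 0.19). When the ends were weighted for a straight line in log2 hours instead, 22 miRNAs passed and the 12 were all among them.

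miR-6240 passed the contrast in both lines, with mid-course below the ends, and was the only miRNA to pass the contrast in the control line (0.213%; 42 miRNAs or 8.96% at an unadjusted p under 0.05). Its hairpin lies between annotated genes of its strand on chromosome 5. In the Ikaros line the levels were 2.64, 2.35 and 2.45 (2 h), 1.96, 2.302 and 2.39 (6 h), 1.44, 2.16 and 2.17 (12 h) and 3.64, 3.35 and 2.96 (24 h). In the control line they were 2.87, 2.64 and 3.73 (2 h), 2.39, 2.08 and 2.297 (6 h), 1.08, 0.52 and 1.096 (12 h) and 2.86, 2.33 and 2.46 (24 h). The control samples of 12 h lay below all the other samples listed here. The contrast was -0.83 (SE 0.19, adjusted p = 0.00932) in the Ikaros line and -1.24 (SE 0.19, adjusted p = 0.000185) in the control line. Against 2 h alone the Ikaros mid-course mean was 0.41 lower, which did not pass (adjusted p = 0.72). The difference between the lines was 0.41 (95% interval -0.14 to 0.97, adjusted p = 0.61).

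The other 11 miRNAs did not pass in the control line, where their contrasts lay between -0.25 and 0.11. Whether the contrast differed between the lines was tested as Ikaros minus control, whose control part also rests on the authors' correction for the sequencing occasion. At an adjusted p under 0.05, 0 miRNAs passed this test in limma, against 53 at an unadjusted p (11.3%), and 9 of the 12 were among those. That share is favoured by the choice of the 12, since the line difference contains the Ikaros contrast they were chosen on. The smallest adjusted p-value was 0.068, reached by miR-30e-5p with a line difference of -1.10, miR-210-5p with 2.18, miR-1198-5p with -0.54, miR-92a-1-5p with 0.66 and miR-467c-5p with 0.63. A fit with a replicate block for the culture batch passed 1 miRNA, miR-210-5p (adjusted p = 0.000934), and one value per culture batch, which uses the same pairing, passed none, with an adjusted p of 0.56 for it. Without replicate 4 of 2 h or without replicate 4 of 12 h 1 miRNA passed. When miRNAs of a mean level under 3 were left out 6 passed, namely miR-210-5p, miR-1198-5p, miR-92a-1-5p, miR-350-3p, miR-467c-5p and miR-21a-5p, and this filter removed miR-30e-5p, miR-6240 and miR-1843a-3p.

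**Figure D3:**
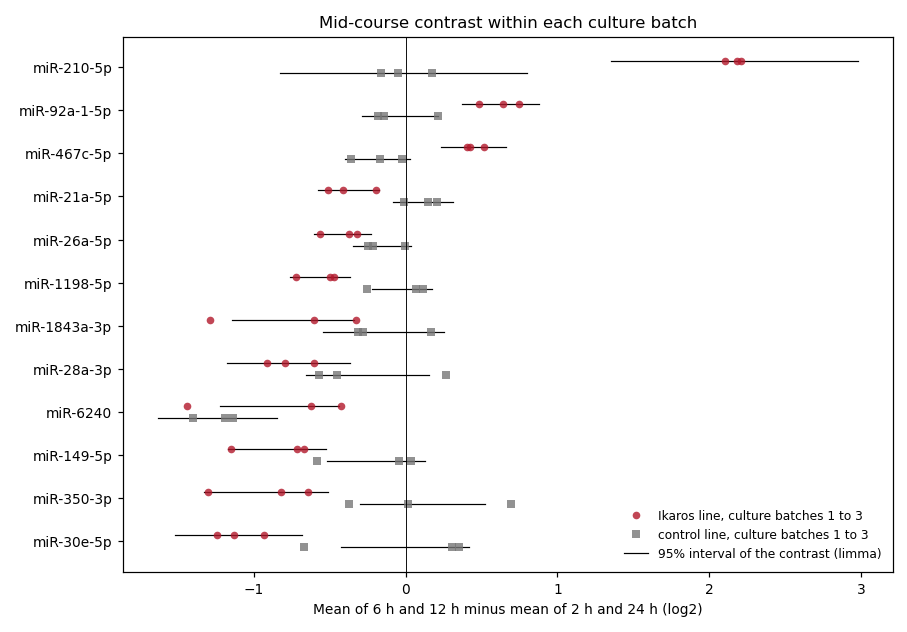
The mid-course contrast (log2, horizontal axis) of the 12 miRNAs within each of the 3 culture batches, as red circles for the Ikaros line and grey squares for the control line. Black bars are 95% intervals of the pooled contrast from limma. Red circles keep to one side of 0 for each miRNA, from 2.103 to 2.21 for miR-210-5p, and the grey squares of miR-6240 lie between -1.399 and -1.13. The 12 were chosen on the mean of their red circles, which favours one side of 0.

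Each mid-course time was also set against the ends by itself. Against the ends, 6 h passed for 15 miRNAs (3.2%; 66 or 14.1% unadjusted), 4 higher (0.853%) and 11 lower (2.35%), and 12 h for 1 (0.213%; 38 or 8.1% unadjusted), miR-30e-5p at -1.43 (adjusted p = 0.00164). The count for 6 h was 9 without replicate 1 of 2 h, 7 without replicate 1 of 6 h and 8 without replicate 4 of 6 h, and once every sample was centred on its own median it was 6, split into 3 higher and 3 lower. The count for 12 h was 2 without replicate 1 of 12 h or replicate 4 of 24 h, 4 without replicate 4 of 12 h, and 3 with the replicate block. Of the 12, 9 passed at 6 h alone. Their choice favours this, since the contrast holds the same samples of 6 h and of the ends. The difference between 12 h and 6 h passed for none of the 12.

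In that difference 1 miRNA passed among the 469 (0.213%; 37 or 7.89% unadjusted). It was miR-181b-2-3p, a partner arm of the miR-181 family of lymphocyte precursors, whose sequence is given since it alone passed after adjustment.
miR-181b-2-3p: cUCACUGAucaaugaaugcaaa
Its levels were 2.51, 2.27 and 2.26 (2 h), 2.04, 2.47 and 2.29 (6 h), 3.91, 3.203 and 3.63 (12 h), 3.91, 3.55 and 3.74 (18 h) and 3.09, 3.202 and 3.26 (24 h). It stepped up by 1.31 between 6 h and 12 h (SE 0.28, adjusted p = 0.0242), with no overlap, and the samples of 24 h overlapped those of 12 h. Its mid-course contrast was 0.16 (adjusted p = 0.91), and the step from 6 h to 12 h was not tested in the control line. The call was lost without replicate 1 or 4 of 6 h and without replicate 1 of 12 h, and 4 miRNAs passed without replicate 4 of 12 h.

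The samples of 18 h took no part in the contrast and show how far the change had gone by then. For all 12 miRNAs the 18 h mean lay between the mid-course mean and the 24 h mean, as it did for 254 of the 469 (54.2%) and for 95 of the 100 that differed between mid-course and 24 h (95%). It stood at 33.6% of the way for miR-6240 and 70.4% for miR-1198-5p, with a median of 57.1%. The step from mid-course to 18 h passed for 10 of the 12, all but miR-6240 and miR-1843a-3p. This is favoured by the choice of the 12, since the step uses the same mid-course samples. Over the table it passed for 29 miRNAs (6.18%; 84 or 17.9% unadjusted), 21 of them higher (4.48%) and 8 lower (1.71%) at 18 h. Of the 29, 27 also differed between mid-course and 24 h, a comparison that shares the mid-course samples. The count was 17, 19 and 18 without replicate 1, 2 or 4 of 6 h, and centring on the sample medians split the calls into 14 higher and 10 lower.

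The other miRNAs with a distance of at least 0.5 from both ends did not pass the contrast. miR-222-3p, known for holding back the cell cycle inhibitor p27, had levels of 3.47, 3.26 and 3.08 (2 h), 2.72, 2.57 and 2.94 (6 h), 3.37, 3.0001 and 1.19 (12 h) and 3.45, 2.92 and 3.49 (24 h). The low value of 1.19 came from replicate 4 of 12 h, the sample with the highest score on the miR-19 axis. Its contrast was -0.65 (adjusted p = 0.26). miR-6988-3p had means of 1.71, 1.07, 0.87 and 1.5001 and a contrast of -0.63 (adjusted p = 0.095). miR-221-5p stood 0.72 above 2 h and 0.78 above 24 h, with an adjusted p of 0.87 for the contrast.

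The partner arm of a miRNA that passed was in the table for 9 of the 12. None passed the mid-course contrast, and their values ran from -0.17 for miR-1843a-5p to 0.64 for miR-210-3p. Against 24 h, 3 of the 9 passed, miR-210-3p, miR-26a-2-3p and miR-467c-3p, each on the side of its partner. Of all 469 miRNAs, 100 (21.3%) passed against 24 h, and whether partner arms passed more often than others was not tested. miR-26a-2-3p had a rising course, with means of 3.42, 4.09, 4.71 and 5.601 at 2, 6, 12 and 24 h. Its mid-course lay 0.98 above 2 h (adjusted p = 0.0106) and 1.20 below 24 h (adjusted p = 7.83e-05), and the mid-course contrast was -0.11 (adjusted p = 0.94). Among the miRNAs with a sequence, those sharing the seed of one that passed were miR-30c-5p, miR-26b-5p for miR-26a-5p and miR-330-3p for miR-6240, with contrasts of -0.38, 0.09 and 0.05, and none passed.

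Groups of miRNAs that share a host gene or a known regulator were described by their counts and medians beside those of the table, where 236 of the 469 contrasts were above 0 and the median was 0.0026. Over the table, 11.3% were higher and 10% lower in mid-course than at 24 h with a median difference of 0.07, and the median difference from 2 h was -0.06. All 10 measured members of the cluster in an intron of Clcn5 (miR-188, miR-362, miR-500, miR-501 and miR-532) had a contrast below 0 without any passing, with a median of -0.36. Against 24 h, 5 of the 10 were lower and 0 higher, among them miR-362-3p at -1.34 and miR-532-5p at -1.07, and against 2 h none passed, with a median of 0.14, or 0.29 after centring on sample medians. The cluster of miR-322, miR-503, miR-351, miR-542 and miR-450, whose first named restrain the cell cycle, had 12 members. Of these 11 had a contrast below 0, with a median of -0.19 against -0.20 in the control line, and none passed. Against 24 h 3 were lower and 0 higher, and 5 were lower after quantile normalization.

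Of the 35 members of the Sfmbt2 families, 28 had a contrast above 0, with a median of 0.14, and 1 passed, miR-467c-5p. Against 24 h, 15 were higher and 0 lower, and after quantile normalization 9 were higher and 0 lower. Against 2 h none passed, with a median of -0.22, or -0.07 after centring on sample medians. Of the 28 members of the miR-17-92 cluster and its paralogs, 22 had a contrast above 0, with a median of 0.14. Among them 1 passed, miR-92a-1-5p, and against 24 h 5 were higher and 3 lower. After centring on sample medians 3 were higher and 3 lower, and after quantile normalization 4 were higher and 1 lower. Those that were lower, miR-93-5p, miR-93-3p and miR-106b-3p, belong to the paralog cluster of miR-106b and miR-25.

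Of the 42 miRNAs reported as repressed by Myc, 2 passed the contrast, miR-30e-5p and miR-26a-5p, both below the ends, against 2.56% of the table, and the median was -0.08, or -0.02 after centring on sample medians. Of the 23 lymphocyte regulators, 1 passed, miR-21a-5p, and 12 lay above 0 and 11 below. Among them miR-155-5p, induced in activated lymphocytes, had a contrast of -0.23 and its partner miR-155-3p one of 0.36, and neither passed. Of the 16 miRNAs known to be induced by stimuli, 1 passed, again miR-21a-5p. No member passed the contrast among the 10 linked to p53, the 10 of the clusters of miR-23, miR-27 and miR-24 or the 2 of the cluster of miR-182, miR-183 and miR-96. Of the 135 whose number has 4 digits, 3 passed (2.22%), near the 2.56% of the table, namely miR-1198-5p, miR-6240 and miR-1843a-3p. In the control line the median contrast was -0.02 for the Clcn5 cluster and -0.04 for the Sfmbt2 families. It was -0.08 for the miR-17-92 cluster and paralogs and -0.03 for the miRNAs reported as repressed by Myc, against -0.04 for the table. Each Ikaros median of the contrast given here for a group kept its sign once samples were centred on their medians and after quantile normalization.

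**Figure D4:**
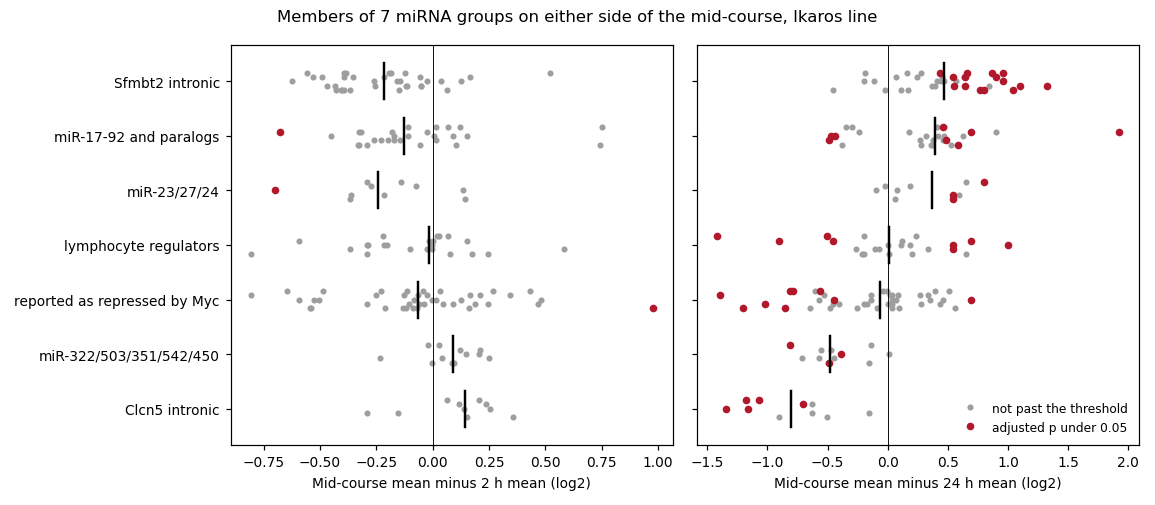
Mid-course mean minus 2 h mean (left) and minus 24 h mean (right), in log2 units, for the members of 7 groups of miRNAs in the Ikaros line. Points are single miRNAs, red where the adjusted p was under 0.05, and black bars mark the medians. On the left 3 groups hold 1 red point each, and on the right the medians run from -0.80 for the Clcn5 cluster to 0.47 for the Sfmbt2 families.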

How the data were processed

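Per the methods of the study, small RNA reads were aligned to miRBase by the authors using Novoalign and tallied using multiBamCov of bedtools, after which low miRNAs were dropped and GC content (cqn), library size (TMM) and sequencing batch (ComBat) were corrected and technical replicates averaged. What was deposited is a table of log2 values. The batch correction can shrink or add differences between times sequenced on separate occasions. The processing notes name the build mm10. Each of the 36 columns was matched to its sample by line, time and replicate number.

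One mean for each of the 12 groups of line and time was fitted with limma 3.58.1 in R 4.3.3 (lmFit, eBayes with a mean-variance trend), and contrasts were tested two-sided with Benjamini-Hochberg adjustment at a threshold of 0.05. The fit was also run on simulated data, with noise drawn separately for each miRNA and sample. Those data held no shared axis of spread like the miR-19 axis, so false calls from such an axis were not covered. P-values rest on the spread within groups, pooled over all 36 samples of both lines and moderated across miRNAs, without the culture batch. Each group is 3 cultures of 1 line, so other lines are not covered. With one value per culture batch, which uses the spread among 3 batches, 1 of the 12 passed, miR-210-5p. By the labels, same-numbered samples of 2 h to 24 h came from 1 culture batch, which is the source of the pairing. Their deviations from the group means correlated across miRNAs with r from -0.49 to 0.58 between Ikaros times and from 0.25 to 0.41 between the lines at 1 time.

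Named miRNAs were those past the threshold in the Ikaros contrast with 1 sign in all culture batches and a mid-course mean beyond both ends by value, with their partner arms, both arms of miR-210, the members of lists that passed and the miRNA that passed in the control line. The other miRNAs that passed and their partner arms, the calls of small counts, miR-222-3p, miR-6988-3p, miR-221-5p, miR-30b-5p and the examples of clusters were chosen after their values were seen. The comparison and the lists were chosen with earlier results of these data known. Positions, hosts and sequences come from annotations of GRCm38.p6, by name. Figures were drawn with matplotlib 3.10.9 in Python 3.11.15.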

Additional observations from a re-analysis of the deposited data

How the results depend on the processing

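The 12 miRNAs that passed the mid-course contrast kept its sign in every alternative run. Counts are given in the order mid-course contrast, line difference, mid-course against 2 h, against 24 h, 6 h alone, 12 h alone, 12 h against 6 h and 18 h against mid-course, and only where they moved by over 1.5 times. A model of the compared groups alone gave 3, 1, 0, 65, 2 and 2 for the first 6 and 18 for the last. Sample weights, whose estimation did not fully converge, gave 56, 19, 56, 153, 43, 36, 15 and 54, and 4 beyond both ends. One value per culture batch gave 1 for the contrast, 0 for it in the control line, 0 against 2 h, 34 against 24 h, 1 for 6 h, 0 for 12 h against 6 h and 2 for 18 h. The replicate block gave 1 for the line difference, 3 for 12 h, 16 in the contrast with the 12 among them, and 99 against 24 h, 97 of them among the 100. It ended no call of the 12 in the contrast or against 24 h. Centring on sample medians gave 2 in the control line, 1 for the line difference and 6 for 6 h, and quantile normalization gave 2 for 12 h. Leaving out miRNAs of a mean under 3 gave 0 in the control line, 6 for the line difference and 0 for 12 h and for 12 h against 6 h. A fit without the mean-variance trend gave 2 for 12 h. Leaving out both samples sequenced on 2 occasions gave 0 against 2 h, 7 for 6 h, 0 for 12 h against 6 h and 11 for 18 h. The alternatives that follow were chosen after seeing the data. Ends weighted for a line in hours gave 1 in the contrast, and for a line in log2 hours 22, with 9 for the line difference. Leaving out the 3 samples of the highest miR-19 axis scores gave 7 in the contrast, 0 against 2 h, 6 for 6 h, 0 for 12 h and 0 for 12 h against 6 h. Without single replicates the ranges were 0 to 17, 0 to 1, 0 to 6, 38 to 104, 0 to 18, 0 to 4, 0 to 9 and 3 to 33, with 1 to 1 in the control line and 0 to 0 beyond both ends.

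Small differences changed sign. For the contrast, miR-21a-3p was -0.24 with weights and -0.035 without the 3 samples (-0.19 to 0.49 without single replicates). miR-28a-5p was 0.17 with weights, 0.040 median-centred, 0.023 by quantiles, 0.022 in hours and 0.13 without the 3 samples (-0.14 to 0.12). miR-1198-3p was -0.012 without the samples sequenced on 2 occasions and -0.092 in hours (-0.19 to 0.12), and miR-92a-3p -0.070 and -0.11 (-0.10 to 0.14). miR-26a-2-3p was 0.28 in hours (-0.24 to 0.063), and miR-30e-3p ranged from -0.051 to 0.22. Against 2 h, miR-149-5p was 0.049 with weights, 0.15 median-centred and 0.13 by quantiles (-0.16 to 0.21), miR-1843a-3p 0.25, 0.11 and 0.020 (-0.24 to 0.29), miR-28a-3p 0.020 median-centred and 0.045 without the 3 samples (-0.42 to 0.045), and miR-210-5p ranged from -0.0022 to 0.36. In all these the cause was not tested. Depth is unknown, so no limit from it can be given.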
